A study of Mus musculus with 6 samples.

Results

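The 9 genes described here encode inhibitors that hold the proteases of myeloid granules and lysosomes in check: the clade B serpins Serpinb1a, Serpinb6a and Serpinb9, the clade A serpins Serpina3g and Serpina3f, the whey acidic protein Slpi, and the cystatins Cst3, Cst7 and Cstb. They were taken by symbol from a table of RNA-seq read counts, in which all 9 were among the 16539 genes listed and all 9 among the 12097 genes that passed the filter on low counts. The cells were granulocyte-monocyte progenitors, the marrow precursors of neutrophils and monocytes, of wild-type mice whose marrow was sorted 3 days into a myocardial infarct, an area of heart muscle that dies when its blood supply is cut. In 3 libraries the mice had infarction alone (control), and in 3 they had infarction with sleep fragmentation, repeated interruption of sleep, so every mouse carried an infarct and no library shows the uninjured state. Neither the age of the animals nor the number pooled into a library is stated in the labels, so p-values measure the spread between these libraries, which may be technical.

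Progenitors of the neutrophil line make very large amounts of the serine proteases neutrophil elastase, proteinase 3 and cathepsin G and pack them into primary granules. Serpins are suicide inhibitors: the protease cleaves a loop of the serpin and is then trapped in a covalent complex. Clade B serpins stay in the cytosol and the nucleus, where they protect the cell from protease that leaks out of granules. Cystatins bind reversibly in the active site of papain-like cysteine proteases such as cathepsins B, L and S, and Slpi is a small secreted inhibitor of elastase and cathepsin G. In the deposited annotation all 5 serpins and Slpi carried a serine-type endopeptidase inhibitor term, and the 3 cystatins, Serpinb9 and Serpina3g carried a cysteine-type one.

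Total counts lay between 28971253 and 31665923 per library. The progenitor genes Mpo, Elane, Prtn3, Ctsg, Kit and Myb were abundant in every library, while 13 markers of maturing neutrophils, among them Ltf, Camp, Ngp and S100a8, were also abundant and uneven. Their summed level was 64183, 84011 and 47872 CPM (counts per 1e+06 of the scaled library) in control replicates 1 to 3 and 130922, 53561 and 120814 CPM in sleep fragmentation replicates 1 to 3. Each of the 13 was fitted higher with sleep fragmentation, but the groups overlapped in the sum. Of 10 progenitor genes, Elane, Prtn3 and Ctsg among them, 1 was fitted higher and 9 lower, and their sum was 17699 to 20110 CPM in control libraries and 12866 to 19317 CPM in those of sleep fragmentation. Mpo gave the largest part of that sum, 7000 to 11557 CPM, while Cd34, of the same list, had 27.5 to 66.0 CPM. In bulk RNA, more cells of a type and more RNA per cell cannot be told apart. Markers of other cells were also present, with sums of 2566 to 4627 CPM for eosinophil genes, 2525 to 2951 CPM for monocyte and dendritic genes and 1045 to 2587 CPM for basophil and mast cell genes, all overlapping between groups. Sums were lower for the rest, with T and NK genes between 169.0 and 260.5 CPM, almost all of it Nkg7 (Cd3e had 0 to 3 reads), B cell genes between 12.4 and 20.2 CPM and erythroid genes between 5.64 and 29.9 CPM.

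Slpi was the only member whose groups did not overlap, and Serpina3g and Serpina3f each had 1 library of sleep fragmentation far above the rest. The other 6 members had overlapping groups. By edgeR's quasi-likelihood test 0 of the 9 members passed at an adjusted p under 0.05, as did 0 of all 12097 genes (0%), and each member had an adjusted p of 0.99988. DESeq2 also called 0 of the 9, and 13 of all genes tested. Fitted levels were higher after sleep fragmentation for 7 members and lower for 2, with a median log2 fold change of 0.19 beside -0.0043 over all genes tested. At an unadjusted p under 0.05 edgeR had 2 members, Slpi and Serpina3f, both higher, beside 341 of all genes (2.82%), of which 261 were higher (2.16%) and 80 lower (0.661%).

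**Figure D1:**
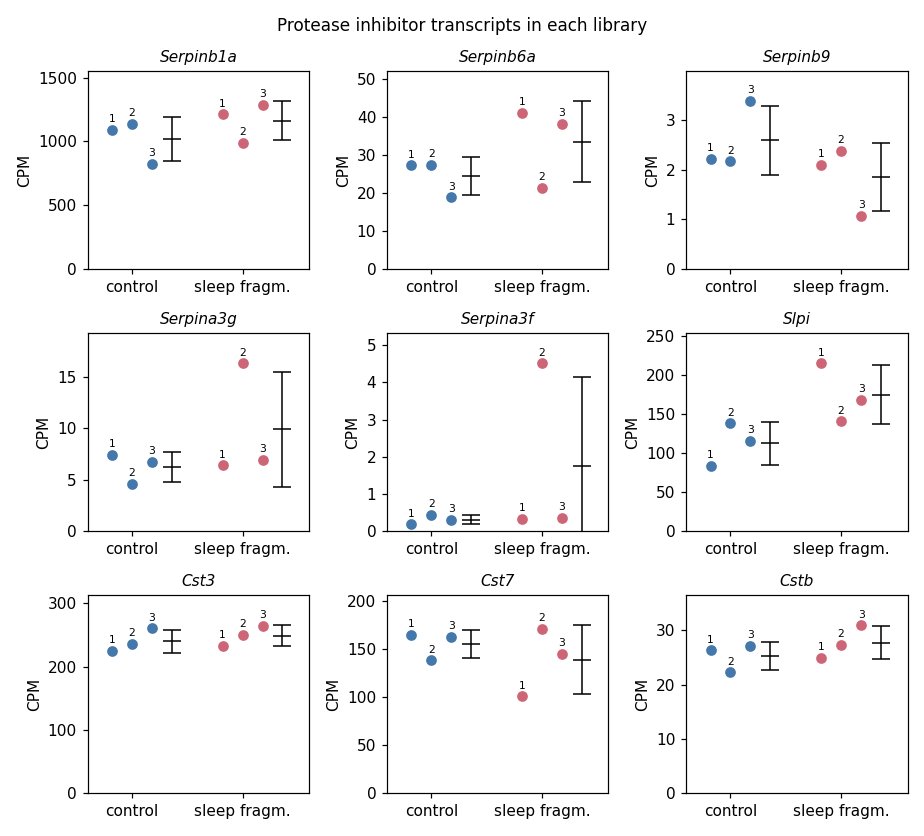
Level of each of the 9 inhibitor transcripts in CPM on a linear axis from 0, with control libraries in blue and sleep fragmentation libraries in red. Numbers are replicate numbers, and bars give the group mean and SD (n = 3 per group; the lower arm for Serpina3f ends at the axis). Slpi is separated between the groups by a small gap, and sleep fragmentation replicate 2 stands above the other libraries for Serpina3g and Serpina3f.

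Levels of different genes were compared only as CPM per kilobase of the longest protein-coding transcript. On that scale Serpinb1a led the members in every library, between 428.9 and 670.6 CPM per kilobase, and Cst3 came next, between 261.1 and 307.7. Slpi (95.8 to 246.2) and Cst7 (102.1 to 173.4) overlapped and were not separated. Cstb followed at 37.0 to 51.3, Serpinb6a at 11.4 to 24.9 and Serpina3g at 2.54 to 9.06 CPM per kilobase. Serpinb9, at 0.308 to 0.972, and Serpina3f, at 0.0843 to 2.01 CPM per kilobase, overlapped at the bottom. The proteases Elane (2101 to 2972), Prtn3 (1386 to 2057) and Ctsg (785.5 to 1541 CPM per kilobase) lay above every inhibitor in each library.

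Serpinb1a, which inhibits elastase, proteinase 3 and cathepsin G, had 1091, 1139 and 822.5 CPM in control replicates 1 to 3 and 1211, 989.6 and 1286 CPM in sleep fragmentation replicates 1 to 3. The groups overlapped, with replicates 1 and 3 of sleep fragmentation highest and control replicate 3 lowest. Control libraries averaged 1018 ± 170.7 CPM and sleep fragmentation libraries 1162 ± 154.2 CPM (SD, n = 3 each). The log2 fold change was 0.19 (SE 0.18), with a 95% interval of the fold from 0.862 to 1.51. Serpinb1a was thus not shown to differ, at a depth of at least 27044 reads per library.

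Serpinb6a, a cytosolic inhibitor of cathepsin G, had 27.3, 27.5 and 18.9 CPM in control replicates 1 to 3 and 41.2, 21.4 and 38.3 CPM in sleep fragmentation replicates 1 to 3. Replicates 1 and 3 of sleep fragmentation were above all control libraries, and replicate 2 lay within them. The means were 24.6 ± 4.92 and 33.6 ± 10.7 CPM (SD, n = 3 each), a log2 fold change of 0.45 (SE 0.25). The log2 fold change was 0.69 without sleep fragmentation replicate 2, 0.28 without sleep fragmentation replicate 1 and 0.29 without control replicate 3, in no case passing edgeR's test over all genes.

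The 6 libraries had the same order for Serpinb6a as for the sum of maturing neutrophil markers, with sleep fragmentation replicates 1 and 3 first, then control replicates 2 and 1, sleep fragmentation replicate 2 and control replicate 3. Serpinb1a had that order except that sleep fragmentation replicate 3 was above replicate 1. For Serpinb6a control replicates 2 and 1 were almost tied, at 27.48 and 27.34 CPM from 863 and 866 reads. The score of those markers, their mean log2 CPM less its mean over the libraries, had another order than their sum. In it sleep fragmentation replicate 2 (-0.43) was above control replicate 1 (-0.57). With the score of those markers as a covariate, a fit chosen after the data were seen, the log2 fold change was -0.007 (SE 0.13) for Serpinb1a and -0.025 (SE 0.18) for Serpinb6a. The part of these markers in either difference was not tested beyond that fit.

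Serpinb9, which inhibits granzyme B and protects cells that carry or meet it, was measured at low depth, with 29 to 111 reads per library. It had 2.21, 2.17 and 3.38 CPM in control replicates 1 to 3 and 2.09, 2.38 and 1.07 CPM in sleep fragmentation replicates 1 to 3. The groups overlapped, with control replicate 3 highest and sleep fragmentation replicate 3 lowest. The log2 fold change was -0.48 (SE 0.41), and the 95% interval of the fold ran from 0.378 to 1.36, so the sign of a difference was not resolved at this depth and spread. It was -0.21 without sleep fragmentation replicate 3, -0.24 without control replicate 3 and -0.23 with the neutrophil marker covariate.

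**Figure D2:**
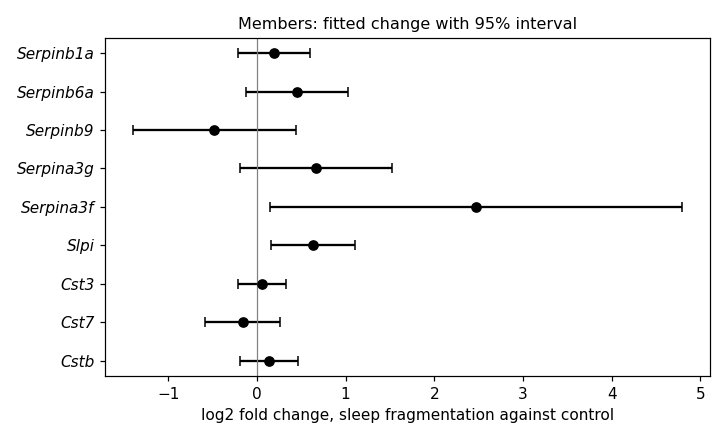
Fitted log2 fold change of each member for sleep fragmentation against control, with bars giving the 95% interval from edgeR's quasi-likelihood fit (3 libraries per group). The intervals of Slpi and Serpina3f lie above 0 before adjustment over all genes, that of Serpina3f is by far the widest, and that of Cst3 the narrowest.

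Serpina3g, also called Spi2A, is a cytosolic serpin of mouse leukocytes that inhibits cathepsins B and L as well as serine proteases, and its expression is inducible by interferon-gamma. It had 7.42, 4.59 and 6.75 CPM in control replicates 1 to 3 and 6.39, 16.3 and 6.94 CPM in sleep fragmentation replicates 1 to 3. Replicate 2 of sleep fragmentation was the highest, and replicates 1 and 3 lay within the control range. Serpina3f, its neighbour in the clade A cluster on chromosome 12, had 0.189, 0.446 and 0.304 CPM in control libraries against 0.337, 4.52 and 0.369 CPM in those of sleep fragmentation. In reads that was 6, 14 and 10 against 9, 146 and 10, so the same library stood alone, with levels 13.4 times the lowest of its group.

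The log2 fold change was 0.66 (SE 0.38) for Serpina3g and 2.47 (SE 1.02) for Serpina3f, with unadjusted edgeR p of 0.1125 and 0.03925. Both rested on that library: without sleep fragmentation replicate 2 they were 0.09 and 0.17, with unadjusted edgeR p of 0.7499 and 0.8292. limma-voom gave 1.56 and the fit with a replicate block 1.61 for Serpina3f. With the neutrophil marker covariate they were 1.23 and 2.83. In that edgeR fit Serpina3g had an unadjusted p of 8.9e-05 and an adjusted p of 0.394, the lowest over its alternatives, which ranged from 0.394 to 1, and 0 of all genes passed, with 636 at an unadjusted p under 0.05. That library had 258.4 CPM in the summed T and NK markers, beside 169.0 to 260.5 in the others. Nkg7 made up 256.5 CPM of it, so the sum cannot show whether T or NK cells were present. Its monocyte and dendritic sum of 2945 CPM lay within the control range of 2525 to 2951. Ly6c2 made up 1569 CPM of that sum, so the sum says little about the other genes in it. The source of the high values was not tested.

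Because the clade A genes are close copies, reads could be assigned to the wrong one, and their single values are uncertain. Of all windows of 100 bases in the longest coding transcript, 4.64% for Serpina3g and 3.58% for Serpina3f occurred unchanged in a transcript of another gene, the other copy among them, in the GENCODE M21 annotation. The shares were 16.02% and 10.73% for windows of 50 bases and 0% for both at 150 bases. For Serpinb1a, Serpinb6a and Serpinb9 the shares were 3.42%, 2.68% and 0.380% at 50 bases and 0% at 100 bases, and Slpi and the 3 cystatins had 0% at 50 bases. The labels do not state the read length.

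The promoters of Serpina3g and Serpina3f are shown because both neighbours were highest in the same single library. They are RefSeq sequences of build GRCm38.p6, whereas the reads were counted on GRCm39, and run from 250 bases before to 50 bases after the start site. Serpina3g lies at chr12:104235897-104236196 and Serpina3f at chr12:104214294-104214593, both on the plus strand. Serpina3f had another promoter, not shown, at chr12:104214383-104214682, which overlaps the one shown. It holds the same matches, with ISRE from base 35 and GAS from base 41. Capitals mark matches on either strand to 4 motifs: GAS, the element of STAT factors (TTCNNNGAA), ISRE, the element of interferon-stimulated genes (GAAANNGAA), a C/EBP element (TTGCNNAA) and a PU.1 element (GAGGAA).
Serpina3g: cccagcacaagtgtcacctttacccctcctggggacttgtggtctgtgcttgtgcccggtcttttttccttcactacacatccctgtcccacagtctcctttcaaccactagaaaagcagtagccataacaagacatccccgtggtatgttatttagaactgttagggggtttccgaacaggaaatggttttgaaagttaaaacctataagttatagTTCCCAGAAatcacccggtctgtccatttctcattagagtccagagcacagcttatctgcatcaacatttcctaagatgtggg
Serpina3f: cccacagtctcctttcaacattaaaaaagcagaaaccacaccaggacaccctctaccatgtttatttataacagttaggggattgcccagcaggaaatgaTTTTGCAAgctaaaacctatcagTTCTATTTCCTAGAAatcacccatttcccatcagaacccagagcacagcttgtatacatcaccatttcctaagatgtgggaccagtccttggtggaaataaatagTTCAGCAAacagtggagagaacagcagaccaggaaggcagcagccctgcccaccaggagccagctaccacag
Both promoters held a GAS match, TTCCCAGAA from base 218 in Serpina3g and TTCCTAGAA from base 130 in Serpina3f, each followed by the same bases atcaccc. In Serpina3f an ISRE match from base 124 overlapped it, and C/EBP matches began at bases 101 and 229. Of 32851 promoters of this length, 8.30% held a GAS match, 8.56% an ISRE match, 10.8% a C/EBP match and 28.3% a PU.1 match. These matches describe the letters only. Of the 9 members 7 had a promoter in the RefSeq table, all but Serpinb1a and Cstb, and GAS matches were found in those of Serpina3g, Serpina3f and Serpinb6a. ISRE matches were found in those of Serpina3f, Serpinb9 and Serpinb6a. Serpinb6a had 2 promoters. In promoter 1, too, an ISRE match (from base 168) overlapped a GAS match (from base 174), while promoter 2 held an ISRE match only.

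Slpi, which shields tissue and the secreting cell from elastase and cathepsin G, had 83.9, 138.3 and 116.1 CPM in control replicates 1 to 3 and 215.7, 141.2 and 168.3 CPM in sleep fragmentation replicates 1 to 3. All libraries of sleep fragmentation were above all control libraries, but replicate 2 exceeded control replicate 2 by a small margin. Control libraries averaged 112.8 ± 27.4 CPM and sleep fragmentation libraries 175.1 ± 37.7 CPM (SD, n = 3 each), a 1.55-fold difference (log2 fold change 0.63, SE 0.21, 95% interval of the fold 1.12 to 2.16). Its unadjusted edgeR p was 0.01475, and it did not pass over all genes tested (edgeR adjusted p = 0.99988). Groups did not overlap, with sleep fragmentation higher, in 1 of the 9 members and in 353 of all genes (2.92%), and, with sleep fragmentation lower, in 0 members and 464 genes (3.84%).

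Slpi kept its direction in all 14 alternatives, with log2 fold changes between 0.32 and 0.81 and adjusted p between 0.423 and 1. The lowest was 0.32 with the neutrophil marker covariate, where the unadjusted edgeR p was 0.06301, and it was 0.46 without control replicate 1 and 0.46 without sleep fragmentation replicate 1. Sleep fragmentation replicates 1 and 3 were highest in both Slpi and the neutrophil markers. The orders differed otherwise. Sleep fragmentation replicate 2 was above all control libraries for Slpi but below control replicates 1 and 2 for the marker sum. Control replicate 1 was lowest for Slpi but not for that sum. In the score used as the covariate, sleep fragmentation replicate 2 (-0.43) was above control replicate 1 (-0.57) and below control replicate 2 (0.20). Single markers varied: control replicate 1 was lowest for Mmp8 and Retnlg, as for Slpi, and control replicate 3 for S100a8 and Ngp.

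**Figure D3:**
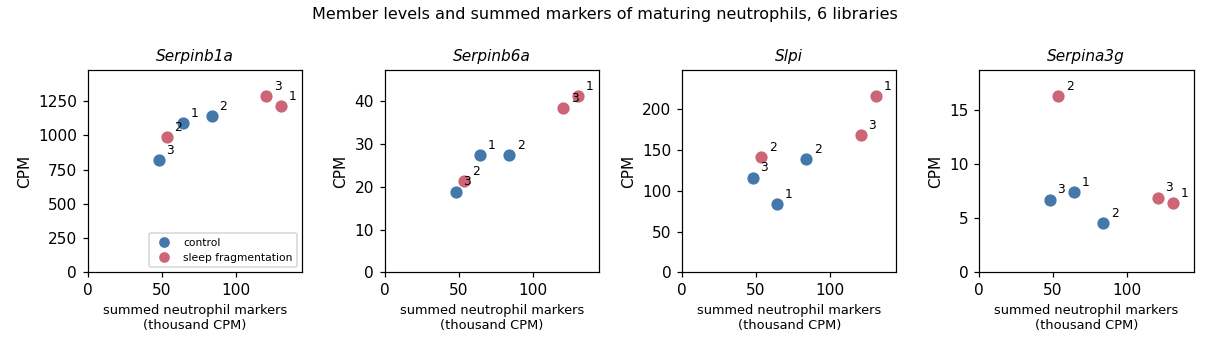
Level of 4 members in CPM (vertical axis, from 0) against the summed level of 13 maturing neutrophil markers in units of 1000 CPM (horizontal axis), 1 point per library, labelled by replicate number. Serpinb1a, Serpinb6a and Slpi are highest in the libraries with the highest marker sums, Slpi with another order among the rest. Serpina3g is highest in sleep fragmentation replicate 2, whose marker sum is 53561 CPM.

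Among the cystatins, Cst3, the secreted cystatin C that inhibits cathepsins outside cells and in the secretory route, had 224.6, 235.6 and 260.3 CPM in control replicates 1 to 3 and 232.7, 250.4 and 264.6 CPM in sleep fragmentation replicates 1 to 3. The groups overlapped almost fully, and the highest library was 1.179 times the lowest. Its log2 fold change was 0.05 (SE 0.12), with a 95% interval of the fold from 0.861 to 1.25, the narrowest among the members. Cstb, the cytosolic cystatin B that inhibits cathepsins B and L, had 26.3, 22.3 and 27.2 CPM in control libraries against 24.9, 27.4 and 30.9 CPM in those of sleep fragmentation. Its groups overlapped as well, with a log2 fold change of 0.14 (SE 0.14) and a 95% interval of the fold from 0.876 to 1.38.

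Cst7 encodes cystatin F, a cystatin of haematopoietic cells that is delivered to lysosomes and granules and there restrains cathepsin C, the enzyme that activates granule serine proteases. It had 164.7, 137.8 and 162.4 CPM in control replicates 1 to 3 and 100.7, 170.9 and 144.7 CPM in sleep fragmentation replicates 1 to 3. Sleep fragmentation replicate 1 was the lowest library and replicate 2 the highest, so the spread within that group exceeded the difference between groups. The log2 fold change was -0.16 (SE 0.19), and it was 0.026 without sleep fragmentation replicate 1 and 0.12 with the neutrophil marker covariate. Sleep fragmentation replicate 1 also had the lowest sum of progenitor markers, 12866 CPM beside 16755 to 20110 CPM in the others.

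The inhibitors were then set against proteases they act on, as ratios of counts within a library, which need no scaling between libraries. Of 16 ratios, 11 had a higher and 5 a lower mean after sleep fragmentation, and the groups were separate in 1, Slpi to Elane. It was 2.94, 4.79 and 3.97 Slpi reads per 100 Elane reads in control libraries, against 10.4, 4.99 and 6.56 with sleep fragmentation, a 1.83-fold difference. Its p of 0.1 (2-sided exact permutation test) is the smallest that 3 against 3 libraries allow, and adjusted over the 16 ratios it was 0.6, so no ratio could pass.

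Elane, neutrophil elastase, had 2852 to 2925 CPM in control libraries and 2067, 2832 and 2567 CPM in those of sleep fragmentation. Its groups were separate by a narrow margin, and scaled by total count alone they overlapped, with sleep fragmentation replicate 2 at 2983 and control replicate 2 at 2865 reads per 1e+06. Elane is itself a progenitor marker, and with the neutrophil marker covariate its log2 fold change went from -0.21 to -0.085 and that of Slpi from 0.63 to 0.32. The part of these markers in the ratio was not tested. Serpinb1a to Prtn3 stood at 51.7, 59.3 and 41.2 reads per 100 in control and 85.3, 56.5 and 83.1 after sleep fragmentation, with overlap through replicate 2. Serpinb6a to Ctsg ranged from 1.44 to 2.49 in control and from 1.56 to 5.23 after sleep fragmentation. Serpinb9 to Gzmb, a ratio of low counts, ranged from 120.7 to 226.5 in control and from 35.8 to 155.6 after sleep fragmentation. The ratios of Cst3 to Ctsb and of Cst7 to Ctsc differed by 0.0019 and -0.014 on the log2 scale, less than the SD within either group.

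**Figure D4:**
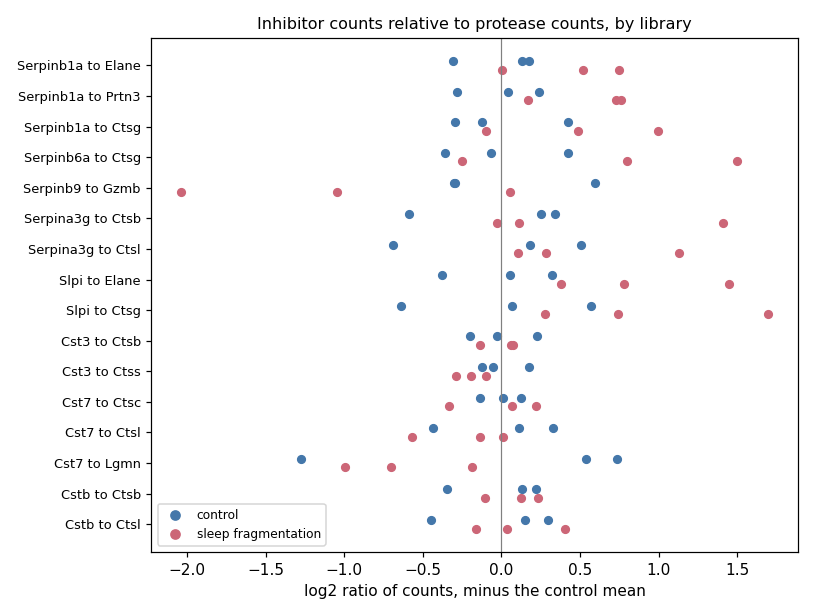
Log2 ratio of inhibitor counts to protease counts in each library, shifted so that the control mean of each pair is 0 (blue, control; red, sleep fragmentation; 3 libraries each). The groups are separate only for Slpi to Elane among the 16 ratios.

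Other protease inhibitors, of these families and of others such as the metalloprotease inhibitors, were described from a list of 80. Of these, 55 were in the table and 27 were tested. By edgeR 0 passed over all genes tested. At an unadjusted p under 0.05 there were 7, none of them lower, beside 2.82% of all genes, and groups were separate in 5, all higher, beside 2.92% of all genes in that direction. Fitted levels were higher in 20 of 27, with a median log2 fold change of 0.47 beside -0.0043 over all genes, and the median was 0.17 without sleep fragmentation replicate 1, 0.81 without sleep fragmentation replicate 2 and 0.14 with the neutrophil marker covariate. DESeq2 called 1 of the 27, Stfa2l1.

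Among the serpins, Serpinb10, or bomapin, a clade B serpin of haematopoietic cells, averaged 41.8 ± 2.46 CPM against 57.8 ± 6.96 CPM with sleep fragmentation (SD, n = 3 each; log2 fold change 0.47). Serpinb2, the plasminogen activator inhibitor type 2, had 2.93 ± 0.507 against 5.49 ± 1.11 CPM, and Wfdc17, a whey acidic protein like Slpi, 3.58 ± 0.682 against 6.24 ± 1.49 CPM. The stefins Stfa2l1 (11.8 ± 5.02 against 32.8 ± 8.42 CPM), Stfa2 (2.58 ± 1.14 against 5.24 ± 1.65 CPM) and Cstdc4 (8.08 ± 5.89 against 18.4 ± 3.78 CPM), close copies of each other whose single values are uncertain, and Timp2, an inhibitor of metalloproteases (37.7 ± 15.9 against 67.2 ± 25.9 CPM), completed the 7. Groups overlapped for Cstdc4 and Timp2. The log2 fold change of Cstdc4 went from 1.19 to 1.97 without control replicate 2, and that of Timp2 from 0.83 to 0.48 without sleep fragmentation replicate 1. With the neutrophil marker covariate it was 0.68 for Cstdc4, 0.26 for Timp2 and 0.62 for Stfa2 (1.02 in the main fit). In the same fit it went from 1.48 to 1.02 for Stfa2l1, from 0.80 to 0.66 for Wfdc17 and from 0.47 to 0.38 for Serpinb10. For Serpinb2 it stayed at 0.91. All 6 tested genes of the stefin group had higher fitted levels, whereas the cystatins Cst3, Cst7 and Cstb lay between -0.16 and 0.14 on the log2 scale. The difference between the groups was not tested.

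**Figure D5:**
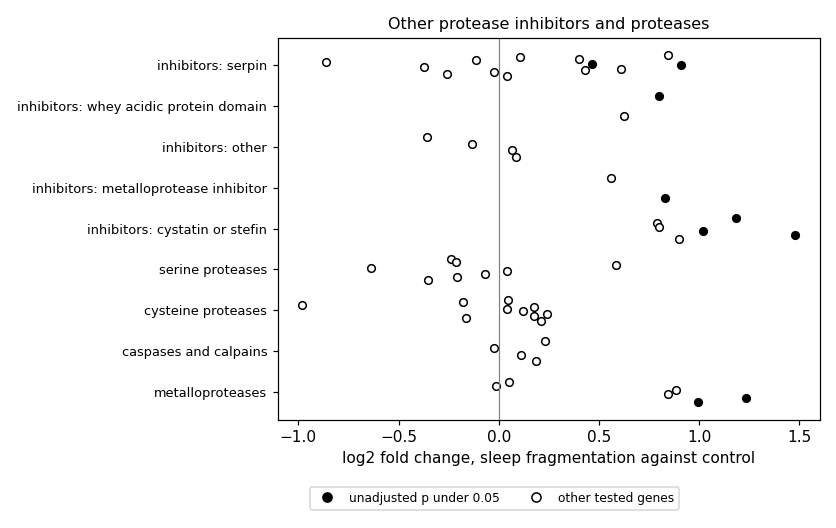
Log2 fold change for sleep fragmentation against control of 27 other protease inhibitors and 28 proteases, 1 point per gene, grouped by class; filled points had an unadjusted edgeR p under 0.05. All 9 filled points, 7 inhibitors and 2 metalloproteases, lie to the right of 0, and 0 of the 55 genes passed over all genes tested.

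Of 35 proteases listed, 28 were tested, and by edgeR 0 passed over all genes tested, while 2 had an unadjusted p under 0.05, both higher, beside 2.82% of all genes. They were the granule metalloproteases Mmp8 (649.7 ± 371.8 against 1530 ± 649.2 CPM) and Mmp9 (842.0 ± 419.7 against 1676 ± 891.6 CPM), both also among the maturing neutrophil markers and overlapping between groups. With the neutrophil marker covariate their log2 fold changes went from 1.24 to 0.53 and from 0.99 to 0.20. Both genes are part of that score, so a decrease was built into this fit and nothing is concluded from it. The log2 fold change of Mmp9 was 0.49 without sleep fragmentation replicate 1. Groups were separate in 3 proteases, all lower after sleep fragmentation, beside 3.84% of all genes in that direction: Elane (2888 ± 36.4 against 2489 ± 388.4 CPM), Prtn3 (2008 ± 94.1 against 1574 ± 167.6 CPM) and Gzmm, granzyme M (1.23 ± 0.236 against 0.789 ± 0.191 CPM), with log2 fold changes of -0.21, -0.35 and -0.64. Scaled by total count alone, Elane overlapped, while Prtn3, Gzmm, Slpi and the 5 separate inhibitors did not.

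The cysteine proteases that cystatins inhibit had overlapping groups. Ctsb had 408.0 ± 44.1 against 421.6 ± 13.8 CPM, Ctsl 17.3 ± 3.11 against 17.7 ± 2.67 CPM, Ctsc 127.6 ± 22.7 against 112.7 ± 17.6 CPM and Ctss 63.3 ± 9.86 against 74.8 ± 9.78 CPM (SD, n = 3 each). Lgmn, legumain, had 6.19 ± 4.52 against 7.17 ± 0.765 CPM, with control replicate 2 highest at 11.4 CPM. Ctsg, cathepsin G, had 1320 ± 220.1 against 1117 ± 300.9 CPM, and Gzmb, granzyme B, 1.70 ± 0.185 against 2.55 ± 1.05 CPM. The fitted log2 fold changes of these 7 lay between -0.24 and 0.58, and 0 had an unadjusted edgeR p under 0.05.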

How the data were processed

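Polyadenylated RNA of sorted cells was sequenced in 6 libraries, and groups and replicate numbers came from the sample titles. The counts deposited by the authors are whole reads per gene, not normalized. The submitters' processing notes name fastp, HISAT2, HTSeq and build GRCm39, with no role, version, annotation release or strand setting, so reads of overlapping antisense genes cannot be told apart.

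Counts were fitted over all genes in R 4.3.3 with edgeR 4.0.16: filterByExpr (minimum count 10, minimum total 15), TMM scaling, the robust quasi-likelihood F-test and Benjamini-Hochberg adjustment at 0.05. The test was also run on simulated counts with changes of known size, each gene drawn on its own, and the outcome is not reported here. Such counts lack the shared variation of the neutrophil markers, so they cannot show how the test behaves under it. CPM uses the TMM-scaled library. Precision was set by 4 residual degrees of freedom and by a coefficient of biological variation of 0.206 in common. Counting error was 17.5% or less for each member at its mean depth. The 17.5% is that of Serpina3f, whose mean rests on sleep fragmentation replicate 2 (146 reads). With 6 to 14 reads in each of the other libraries, its error there is larger. Intervals are at 95%. Ratios added 0.5 to both counts and were compared by an exact permutation test.

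Alternatives were DESeq2 1.42.0, limma-voom (limma 3.58.1), other scaling and filters, a replicate block, and leaving out each library. A neutrophil marker covariate was chosen after the data were seen. Members and lists were chosen with earlier results of these data known. The rule for names took all 9 members, each listed inhibitor or protease with an unadjusted p under 0.05 or separate groups, the proteases of the ratios, and, for the most abundant serpin, whey acidic protein and cystatin, the 3 genes most like it.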

Additional observations from a re-analysis of the deposited data

How the results depend on the processing

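By edgeR 0 genes were called in the main fit and in every alternative fitted with edgeR or limma-voom. DESeq2 called 13 of 12097 genes, 1 of them on the list of other inhibitors (Stfa2l1) and 0 among the 9 members and the proteases. Deviations of same-numbered libraries from their group means correlated at -0.25, -0.37 and -0.0059. These values were not set beside those of differently numbered libraries, so whether the replicate numbers pair the samples was not tested. With the replicate block 0 genes were called, 169 had an unadjusted p under 0.05, and the log2 fold change of Slpi was 0.64. The number at an unadjusted p under 0.05 was between 155 and 1330 when a library was left out. Serpina3f could not be fitted under the stricter filter, which removed it.

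Slpi, Serpina3g, Serpina3f, Serpinb9 and Cstb kept their direction in all alternatives run. With the neutrophil marker covariate Serpinb1a (-0.0068), Serpinb6a (-0.025) and Cst7 (0.12) changed sign, and so did Ctsb (-0.052), Ctsc (0.072), Ctsg (0.077) and Lgmn (-0.14). Scaled by library size only, which moved the median of all genes to -0.11, Cst3 (-0.050), Ctsb (-0.053) and Ctsl (-0.048) changed sign. With a library left out, ranges were -0.34 to 0.026 for Cst7, -0.0069 to 0.14 for Ctsb, -0.092 to 0.19 for Ctsl and -0.090 to 1.001 for Lgmn, and for the log2 ratios -0.097 to 0.12 for Cst3 to Ctsb, -0.13 to 0.14 for Cst7 to Ctsc, -0.091 to 0.19 for Cstb to Ctsb and -0.13 to 0.24 for Cstb to Ctsl. The cause was not tested.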

Other observations

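Genes most like a member across the 6 libraries were ranked by Pearson's r of log2 CPM over 9506 genes with a mean of at least 5 CPM. With so many genes and 6 libraries, high values of r arise readily, and they are given as a description. For Slpi they were Tmem71 (r = 0.997), Adam19 (r = 0.997) and Trpm2 (r = 0.995), and 326 genes had r over 0.9. For Serpinb1a they were Ube2q1 (r = 0.993), Dstn (r = 0.991) and Sypl (r = 0.991), with 191 genes over 0.9, and for Cst3 they were Atp1b1 (r = 0.968), Rheb (r = 0.951) and Cyp39a1 (r = 0.951), with 21 genes over 0.9.

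The same ranking was run for both clade A serpins after their values were seen. Those nearest to Serpina3g were Aida (r = 0.972), Mthfsd (r = 0.957) and Tgtp2 (r = 0.955), with 21 genes over 0.9. Tgtp2, an interferon-inducible GTPase, had 3.63, 2.55 and 4.38 CPM in control replicates 1 to 3 and 4.64, 12.9 and 5.20 CPM in sleep fragmentation replicates 1 to 3. Those nearest to Serpina3f were H2-Q4 (r = 0.962), Coa7 (r = 0.952) and Fdxacb1 (r = 0.944), with 13 genes over 0.9. H2-Q4, of MHC class I, stood at 60.8, 71.1 and 77.4 CPM in control and 67.2, 116.0 and 71.6 CPM after sleep fragmentation. Both belong to families of close copies. Sleep fragmentation replicate 2 was the highest library for all 6 genes. That follows from how they were picked, since both serpins were highest in that library, and no theme was tested.

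Among clade A serpins made chiefly by the liver, Serpina1e had 0, 108 and 69 reads in control replicates 1 to 3 and 138, 0 and 0 reads in sleep fragmentation replicates 1 to 3. Serpina3k had 7, 121 and 96 reads in control and 100, 1 and 3 reads after sleep fragmentation. Looked at after these values were seen, the major urinary protein genes Mup3 (3, 94 and 71 reads against 112, 0 and 3) and Mup20 (7, 37 and 35 against 35, 0 and 4) were high in the same 3 libraries. Alb, albumin, had between 378 and 600 reads in every library. Apoa1 and Ttr were also highest in those 3 libraries, but less sharply, whereas Apoa2, Fga, Fgb and Apoh were not. Ahsg went the other way, with 108, 57 and 37 reads in control and 32, 127 and 68 after sleep fragmentation. The split of Serpina1e, Serpina3k, Mup3 and Mup20 crosses the study groups and was not tested.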
